A study of Rattus norvegicus with 9 samples.

Results

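Ceramide and sphingolipid metabolism genes were followed in pancreatic islets of Wistar rats fed either standard chow or a cafeteria diet. The listed genes were 10 in number: the synthesis genes Sptlc1, Sptlc2, Cers2 and Degs1, the genes Ugcg and Sgms1, which add a head group to ceramide, the breakdown genes Asah1 and Sphk1, and Cptp and Plpp3. The first 8 were taken for their place in the pathway, though with earlier results of these data known. Cptp and Plpp3 were taken because they stood among the genes with the smallest p of this same diet comparison, that is, they were chosen by the measured difference, so their differences are given below as a description, with no test. The platform annotation named probe sets for 8 of the 10 genes, out of 14217 genes in all, and Sptlc1 and Sptlc2, the subunits of the enzyme of the first step, were not analysed here. The 8 genes had 14 probe sets.

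Islets of lean rats on standard chow gave 4 samples and islets of obese rats on the high-caloric cafeteria diet, a choice of palatable energy-dense foods, gave 5, with 1 Affymetrix Rat Genome 230 2.0 array each. The diet lasted 30 days. All rats were Wistar, and the labels give neither age nor sex nor whether islets of several animals were pooled. The p-values therefore reflect only how much these samples vary. The islets had been freed by collagenase digestion, which leaves some cells of the surrounding tissue. Values are log2 expression from RMA, a method that corrects the background, equalises the arrays and summarises the probes of each set. A difference of 1 is a doubling, and all differences are cafeteria diet minus chow. The number of arrays limits the precision, and levels of different probe sets cannot be set against each other as amounts of RNA.

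Ceramide is the hub of sphingolipid metabolism. It is built from serine and palmitate in the endoplasmic reticulum, carried to the Golgi apparatus, and turned there into sphingomyelin or glucosylceramide. It is broken down to sphingosine, whose phosphate is a signal outside the cell until phosphatases remove it or a lyase cleaves it. In islets the pathway is known for its part in the toxicity of saturated fatty acids to beta cells.

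The tissue label was checked against hormone genes. Ins1, Ins2, Gcg and Sst, which encode insulin, glucagon and somatostatin, had means over 9 arrays of 13.43, 14.19, 13.61 and 13.00, where the array medians were 5.28 to 5.32. These are readings of signal, the highest of them 14.24, and give no amounts of RNA. Markers of other cell types were scored too. Of 14 measured acinar markers, digestive enzyme genes for the most part, 13 were higher in cafeteria islets. Their score, the mean deviation of the list from the 9-array mean, ran from -0.81 to 0.21 in chow and from -1.13 to 0.78 in cafeteria arrays (exact permutation p = 0.238, two-sided). Immune cell markers were lower in 16 of 18, with scores from -0.046 to 1.08 in chow and from -0.37 to -0.038 in cafeteria arrays (exact permutation p = 0.0159). Chow replicate 3 held the score of 1.08. The p-values of the scores are not adjusted for the number of scores compared. Ductal markers were lower in 7 of 9, with scores from -0.35 to 0.83 in chow and from -0.16 to -0.030 in cafeteria arrays (exact permutation p = 0.294). RNA quality was read from the 3-prime minus 5-prime signal of the actin and Gapdh controls, where a larger value means less complete transcripts. It was 1.56 ± 0.16 (SD, n = 4) in chow and 1.51 ± 0.24 (SD, n = 5) in cafeteria arrays (exact permutation p = 0.746).

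For the 6 measured genes taken for their place in the pathway, the log2 levels of the diets (cafeteria minus chow) differed by less than 1 SD of the chow arrays in the brightest probe set. Cers2 and Degs1, of ceramide synthesis, differed by 0.0042 and 0.045, and Sphk1, which makes sphingosine 1-phosphate, by -0.011. Asah1, Sgms1 and Ugcg differed by -0.39, -0.19 and -0.10. Cptp, a carrier of ceramide-1-phosphate, differed by 0.46 and Plpp3, a lipid phosphatase, by -0.47, but both were chosen for it. By limma with Benjamini-Hochberg adjustment over 31042 probe sets, 0 of the 6 genes taken for their place in the pathway passed an adjusted p of 0.05, where 0.00% of all genes passed. At an unadjusted p under 0.05 stood 952 genes, 6.70% of all. Read by the brightest probe set, 0 of the 6 stood there, 2 were higher and 4 lower, and their median difference was -0.057, beside 0.0025 over all genes. With another probe set Degs1 had an unadjusted p of 0.0029. None of these 6 had, in the brightest probe set, groups that did not overlap, which 2.17% of all genes had.

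**Figure D1:**
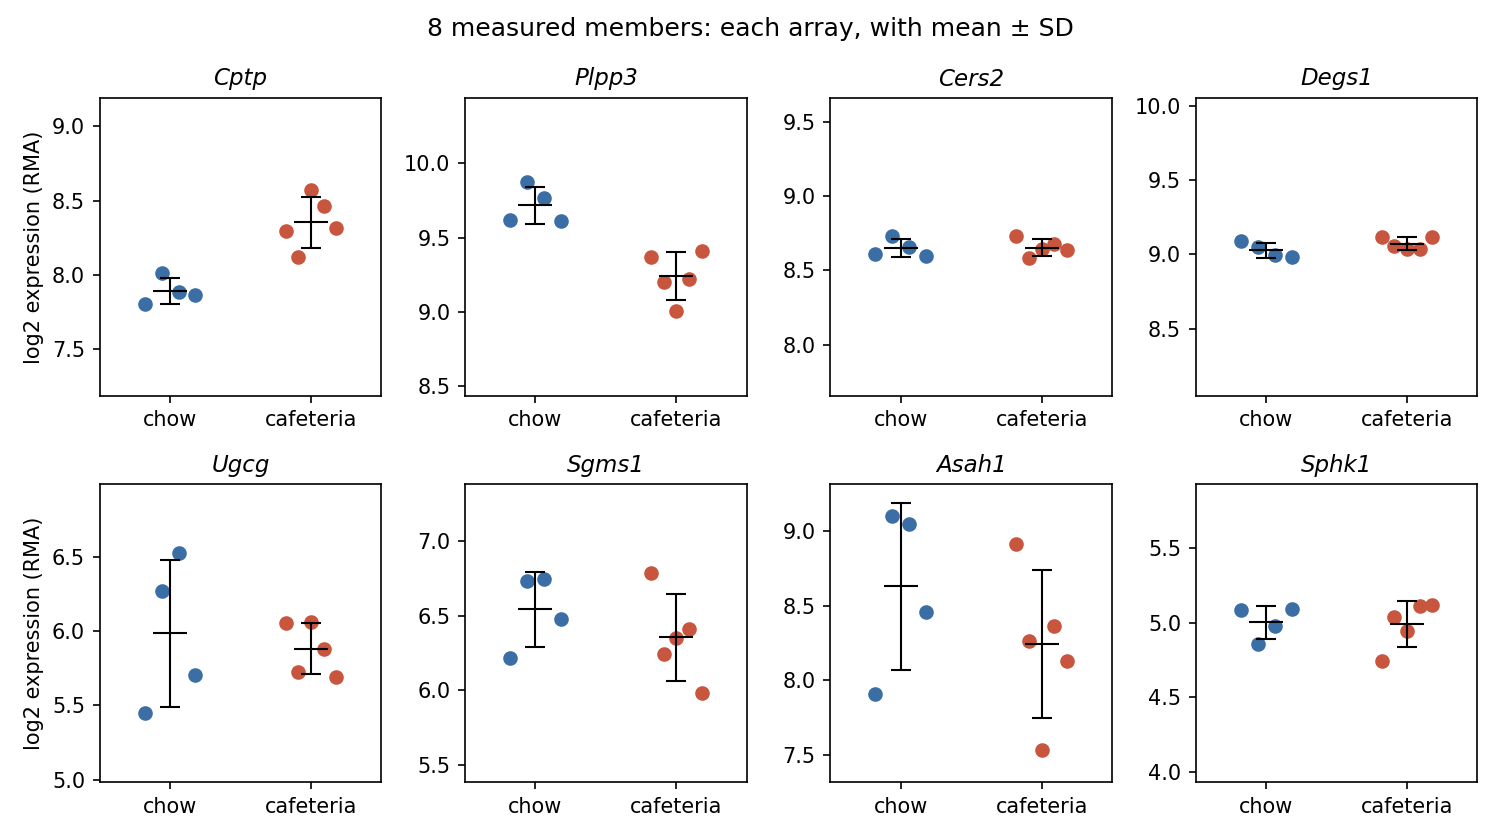
Log2 expression (vertical axis, each panel spanning 2 log2 units) of the brightest probe set of the 8 measured genes in 4 chow and 5 cafeteria arrays. Points are single arrays and bars are the mean ± SD. The cafeteria arrays of Cptp lie above and those of Plpp3 below every chow array. Asah1 spreads widely within both diets, Ugcg widely in chow, and Cers2 and Degs1 hardly at all.

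Lipid transfer genes are given first. Cptp encodes a protein that moves ceramide-1-phosphate between membranes. Its only probe set (1391437_at) read 7.81, 8.01, 7.88 and 7.87 in the chow arrays. It read 8.29, 8.12, 8.57, 8.47 and 8.31 in the cafeteria arrays. Every cafeteria array lay above every chow array, with a gap of 0.11 between cafeteria replicate 2 and chow replicate 2. The means were 7.89 ± 0.088 (SD, n = 4) and 8.35 ± 0.17 (SD, n = 5), a difference of 0.46 (SE 0.096) or 1.38-fold. Of all genes, 1.33% had groups that did not overlap with higher cafeteria values. The rule chose Cptp from this contrast, so nothing is read from that share. The difference was 0.46 with RNA quality, 0.43 with the acinar score and 0.47 with the immune score as a covariate.

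Within the diets the arrays of Cptp were most like those of Gnpnat1, an enzyme of amino sugar synthesis, Rab3d, a small GTPase of secretory vesicles, and Atp6v1a, a subunit of the vacuolar proton pump. Likeness was the correlation over the 9 arrays after the mean of each diet was subtracted, and it reached 0.94, 0.94 and 0.93. These are the highest of 14217 genes by construction, from 9 arrays that share their RNA quality and cell makeup, and are a description. The same measure was -0.20 between Cptp and Plpp3.

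Apart from Cptp, the genes of lipid transfer differed by -0.28 to 0.19. Of the 8 measured genes of the transfer list beside Cptp, 0 passed limma's adjusted p and 0 had an unadjusted p under 0.05, as 6.70% of all genes had. Without Cptp the list had 7 higher and 1 lower, where 50.8% of all genes were higher, and its median was 0.039. Cert1, which carries ceramide from the endoplasmic reticulum to the Golgi apparatus, differed by 0.036 (SE 0.095), and Gltp, a glycolipid transfer protein of the same fold family as Cptp, by 0.051 (SE 0.086). Plekha8, which moves glucosylceramide, differed by 0.19 (SE 0.088), although another of its probe sets went the other way. Vapb, an anchor of Cert1 at the endoplasmic reticulum, differed by 0.15 (SE 0.12), by 0.067 without chow replicate 3, the array with the highest immune score, and by 0.0027 with that score as a covariate. Pltp, a phospholipid transfer protein of plasma, was the only one of these 8 with a difference below 0, at -0.28 (SE 0.14). It was -0.13 with the immune score as a covariate. The adjusted p by limma was 0.844 for Plekha8 and Pltp and 0.856 for Vapb. It ran from 0.460 to 0.9996 for Pltp over the alternatives.

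Synthesis genes came next. Cers2, the ceramide synthase that attaches very long acyl chains, read 8.61, 8.73, 8.65 and 8.60 in chow arrays. It read 8.73, 8.58, 8.64, 8.68 and 8.63 in cafeteria arrays. The ranges of the diets overlapped, with chow replicate 2 the highest and cafeteria replicate 2 the lowest array, and the whole range over 9 arrays was 0.15. The difference was 0.0042 (SE 0.064) with a 95% interval of -0.14 to 0.15, that is 0.909-fold to 1.11-fold, and the adjusted p by limma was 0.994.

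Degs1, the desaturase that completes ceramide by adding its double bond, gave a result that depended on the probe set. Its brightest probe set (1367770_at) read 9.09, 9.05, 8.99 and 8.98 in chow and 9.12, 9.06, 9.03, 9.04 and 9.12 in cafeteria arrays. These groups overlapped, and the difference was 0.045 (SE 0.061, 95% interval -0.089 to 0.18, adjusted p by limma = 0.918). Its dimmest probe set (1386022_at), near the middle of the table in brightness, read 5.96, 6.06, 5.62 and 6.16 in chow arrays. In cafeteria arrays it read 5.74, 5.31, 4.97, 5.49 and 5.26. There 4 of 5 cafeteria arrays lay below every chow array, and cafeteria replicate 1 lay between chow replicates 3 and 1. The difference was -0.60 (SE 0.15, 95% interval -0.94 to -0.25), the largest of the 14 probe sets, with an unadjusted p of 0.0029 and an adjusted p by limma of 0.844. The remaining probe set (1391406_at) differed by -0.28 (SE 0.19), and its chow arrays spread from 7.31 to 8.43. The mean of the 3 probe sets differed by -0.28 (SE 0.11), opposite in sign to the brightest one.

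The other synthesis genes included 1 with a difference of similar size to Cptp. Of 11 measured genes of the synthesis list, 0 passed limma's adjusted p and 1 had an unadjusted p under 0.05, where 6.70% of all genes stood. In this list 4 were higher and 7 lower, and the median was -0.042. Cers5, a ceramide synthase that prefers palmitoyl chains, read 7.71, 7.87, 7.96 and 7.52 in chow arrays. It read 7.62, 7.32, 7.50, 7.23 and 7.25 in cafeteria arrays. All but cafeteria replicate 1 lay below every chow array. The difference was -0.38 (SE 0.11, 95% interval -0.63 to -0.13) with an adjusted p by limma of 0.844, and 0.346 to 0.9996 over the alternatives. Cers6, which prefers the same chains, differed in the other direction, by 0.20 (SE 0.13, adjusted p by limma = 0.849). The difference between these 2 genes was not tested. Ormdl2, which belongs to the family that restrains the first step, differed by 0.12 (SE 0.081, adjusted p by limma = 0.848).

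**Figure D2:**
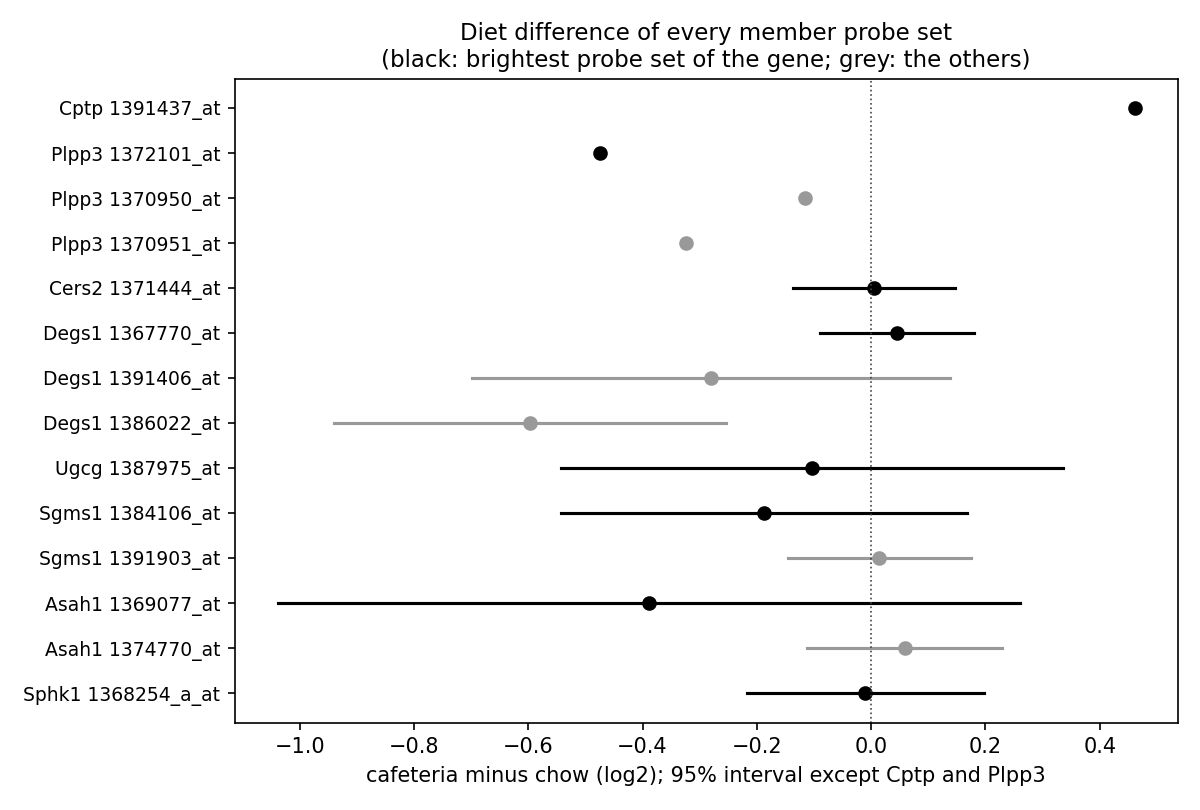
Cafeteria minus chow difference in log2 (horizontal axis) of all 14 probe sets. A line gives the 95% interval of limma for the genes not chosen by their difference, that is, all but Cptp and Plpp3. Black marks the brightest probe set of each gene and grey the others. For Degs1, Sgms1 and Asah1 at least 1 grey point has the sign opposite to the black one, and the 3 Plpp3 points are all below 0.

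The next genes put a head group on ceramide. Sgms1 makes sphingomyelin in the Golgi apparatus. Its brighter probe set (1384106_at) read 6.21, 6.73, 6.74 and 6.48 in chow and 6.79, 6.24, 6.35, 6.41 and 5.98 in cafeteria arrays. The highest and the lowest array were both from the cafeteria group. The difference was -0.19 (SE 0.16, 95% interval -0.54 to 0.17, adjusted p by limma = 0.869). It was -0.093 without cafeteria replicate 5 and -0.30 without chow replicate 1. The other probe set (1391903_at) differed by 0.014 (SE 0.072). Sphingomyelin genes as a list had 2 higher and 7 lower of 9 measured and a median of -0.11. Of them 0 passed the adjusted p of limma and 0 had an unadjusted p under 0.05, where 6.70% of all genes stood. Among them Smpd2, Smpd4 and Smpdl3b, of the sphingomyelinases and their relatives, which release ceramide from sphingomyelin or resemble enzymes that do, differed by -0.15 (SE 0.17), -0.13 (SE 0.10) and -0.13 (SE 0.075). Smpd2 differed by 0.0038 without chow replicate 3, the array with the highest immune score. Smpd1, the acid sphingomyelinase of lysosomes, differed by 0.0045 (SE 0.077).

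Ugcg places the first sugar on ceramide. It read 5.45, 6.27, 6.52 and 5.71 in chow arrays and 6.05, 5.72, 6.06, 5.88 and 5.69 in cafeteria arrays. The 5 cafeteria arrays all lay inside the range of the 4 chow arrays. The difference was -0.10 (SE 0.20, 95% interval -0.54 to 0.34, adjusted p by limma = 0.949). Chow replicate 3, with the immune score of 1.08, was the highest. Without it the difference was 0.074, and with the immune score as a covariate 0.22, so no direction is given.

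Of 22 measured glycosphingolipid genes, 5 were higher and 17 lower, with a median of -0.050. None passed the adjusted p of limma and 1 had an unadjusted p under 0.05, where 6.70% of all genes stood. That gene was St3gal5, which makes the ganglioside GM3. It read 7.33, 7.47, 7.46 and 7.33 in chow and 7.55, 7.64, 7.52, 7.55 and 7.52 in cafeteria arrays. Every cafeteria array lay above every chow array, and the difference was 0.16 (SE 0.066, adjusted p by limma = 0.844). Of all genes, 2.17% had groups that did not overlap, in either direction. B4galt5, which makes lactosylceramide, differed by -0.18 (SE 0.098), with 1 other probe set of opposite sign. B4galnt1, which builds more complex gangliosides, was dim, with a mean of 4.48 over 9 arrays. It differed by -0.33 (SE 0.17), and by -0.13 without chow replicate 3 and 0.048 with the immune score as a covariate.

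The breakdown genes begin with Asah1. It encodes the acid ceramidase of lysosomes, which splits ceramide into sphingosine and a fatty acid. It had 2 probe sets of nearly the same brightness, with means of 8.41 and 8.40 over 9 arrays. The brighter (1369077_at) read 7.91, 9.10, 9.05 and 8.46 in chow arrays. It read 8.92, 8.26, 7.53, 8.37 and 8.13 in cafeteria arrays. The 2 diets overlapped by 1.01, with cafeteria replicate 3 and chow replicate 1 lowest. The difference was -0.39 (SE 0.29, 95% interval -1.04 to 0.26, adjusted p by limma = 0.857). Without chow replicate 1 it was -0.63, without cafeteria replicate 3 -0.21, and with the immune score as a covariate -0.13.

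The other Asah1 probe set (1374770_at) read 8.45, 8.33, 8.36 and 8.32 in chow and 8.40, 8.26, 8.50, 8.40 and 8.57 in cafeteria arrays. It spanned 0.31 over the 9 arrays, where the first spanned 1.58. Its difference was 0.059 (SE 0.077, 95% interval -0.11 to 0.23, adjusted p by limma = 0.914). Cafeteria replicate 3, the lowest array of the first probe set, was the highest but 1 of this one. The choice of the brighter probe set rested on 0.014 log2 in the mean.

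The arrays lowest in the first Asah1 probe set were those with the least complete control transcripts. The RNA quality measure was 1.80 in chow replicate 1, 1.74 in cafeteria replicate 3 and 1.73 in cafeteria replicate 5, and 1.21 to 1.53 in the other 6 arrays. The relation of this measure to each of the 14 probe sets was computed over 9 arrays. For the first Asah1 probe set r was -0.67 (exact permutation p = 0.051, adjusted over the 14 relations 0.238) and rho was -0.72 (exact permutation p = 0.037, adjusted 0.172). Without the 2 arrays farthest from the median quality, chow replicate 1 and cafeteria replicate 1, r was -0.54. For the other Asah1 probe set r was 0.53 (exact permutation p = 0.144, adjusted 0.425) and rho 0.43 (exact permutation p = 0.250, adjusted 0.582), and without the same 2 arrays r was 0.66.

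The brighter Sgms1 probe set had r of -0.67 (exact permutation p = 0.051, adjusted 0.238) and rho of -0.75 (exact permutation p = 0.025, adjusted 0.172), and r was -0.49 without those arrays. The dimmest Plpp3 probe set had r of -0.70 (exact permutation p = 0.039, adjusted 0.238) and rho of -0.75 (exact permutation p = 0.025, adjusted 0.172), and r was -0.55 without them. None of the 14 relations passed an adjusted p of 0.05. Of all probe sets, 6.0% had r below -0.7 and 4.57% had r above 0.7. For Cptp r was -0.094 (exact permutation p = 0.807) and for the brightest Plpp3 probe set -0.045 (exact permutation p = 0.908). These r values take both diets together, so a diet difference enters them. With the mean of each diet subtracted, r was 0.054 for Cptp and -0.35 for the brightest Plpp3 probe set. For the dimmest Degs1 probe set it was -0.70, against -0.32 over both diets together. It was -0.79 for the first Asah1 probe set and 0.61 for the other. For the brighter Sgms1 probe set it was -0.78, and for the dimmest Plpp3 probe set -0.82. The r values within the diets were not tested. The diet difference of Asah1 was -0.49 and that of Sgms1 -0.24 with RNA quality as a covariate.

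**Figure D3:**
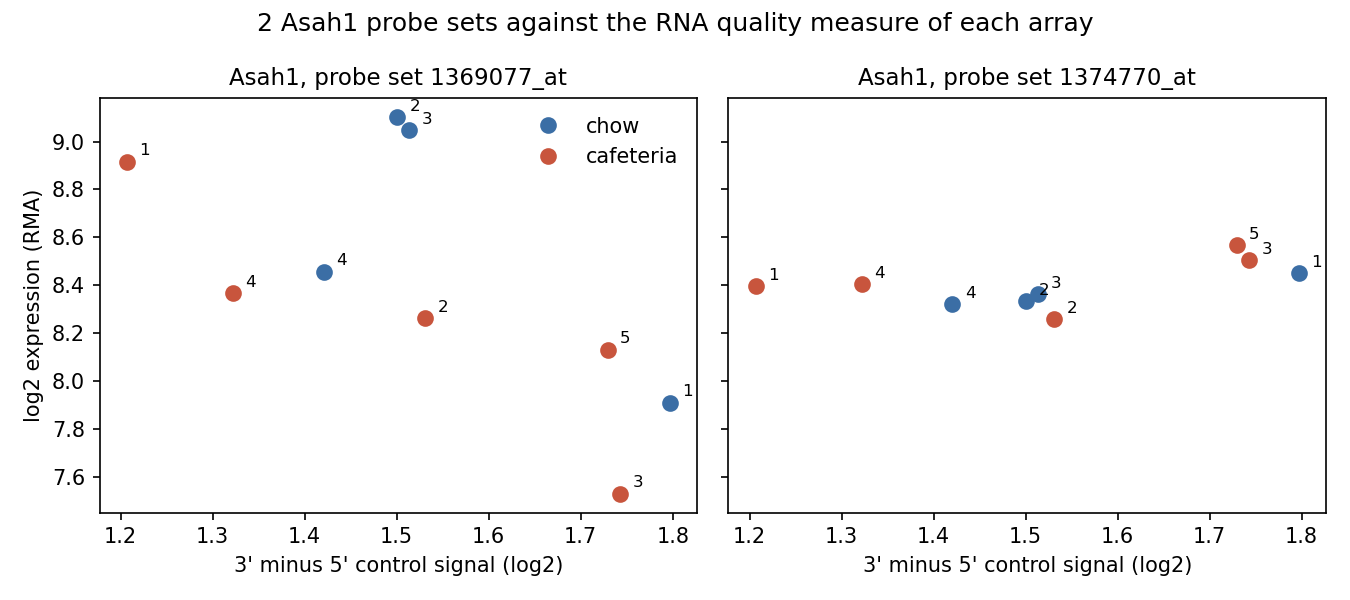
Log2 expression of both Asah1 probe sets (vertical axis) against the RNA quality measure, the 3-prime minus 5-prime signal of the control probe sets in log2 (horizontal axis), with the replicate number beside each array. The left probe set runs from 9.10 down to 7.53, with its lowest arrays, cafeteria replicate 3 and chow replicate 1, at the right end, and the right probe set stays between 8.26 and 8.57.

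Sphingosine and its phosphate form the last step. Sphk1, the kinase that makes sphingosine 1-phosphate, was dim and read 5.08, 4.85, 4.98 and 5.09 in chow arrays. It read 4.74, 5.04, 4.95, 5.11 and 5.12 in cafeteria arrays. The diets overlapped, and cafeteria replicates 1 and 5 were the lowest and the highest array. The difference was -0.011 (SE 0.094, 95% interval -0.22 to 0.20, adjusted p by limma = 0.991). RMA compresses differences of dim probe sets and gives no call of detection. Sphk2, the other kinase, differed by -0.14 (SE 0.12), with another probe set of opposite sign.

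Plpp3 encodes a phosphatase of the cell surface that removes the phosphate of sphingosine 1-phosphate and of related lipids. Its brightest probe set (1372101_at) read 9.62, 9.87, 9.77 and 9.61 in chow arrays. It read 9.37, 9.20, 9.004, 9.22 and 9.41 in cafeteria arrays. Every cafeteria array lay below every chow array, with a gap of 0.20. The means were 9.72 ± 0.13 (SD, n = 4) and 9.24 ± 0.16 (SD, n = 5), a difference of -0.47 (SE 0.098). Of all genes, 0.837% had groups that did not overlap with lower cafeteria values, and as for Cptp nothing is read from that share. Plpp3 is also made by endothelial and stromal cells. Endothelial markers were lower in 9 of 11 measured members, with scores from -0.0021 to 0.089 in chow and from -0.20 to 0.13 in cafeteria arrays (exact permutation p = 0.183). Stellate and matrix markers were lower in 5 of 12, with scores from -0.086 to 0.15 in chow and from -0.54 to 0.32 in cafeteria arrays (exact permutation p = 0.857). The part of these cells in the difference was not tested, and in bulk samples fewer cells of a type and less RNA per cell cannot be told apart. With the immune score as a covariate the difference was -0.41, and with the acinar score -0.43.

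The other Plpp3 probe sets had the same sign and smaller differences. The second (1370950_at) read 7.30, 8.46, 8.18 and 8.15 in chow and 8.06, 8.15, 7.30, 7.80 and 8.23 in cafeteria arrays. It differed by -0.12 (SE 0.24), and its arrays spanned 1.16 in chow and 0.93 in cafeteria islets. The third (1370951_at) differed by -0.32 (SE 0.25). The mean of the 3 probe sets differed by -0.30. The separation of the diets was thus seen in 1 of 3 probe sets, the one that the highest mean selected. The related genes Plpp1 and Plpp2, phosphatases of the same lipids, differed by 0.11 (SE 0.11) and -0.16 (SE 0.14). Within the diets Plpp3 was most like Pfdn4, a subunit of the chaperone prefoldin, Psmb3, a proteasome subunit, and Hars1, a tRNA synthetase, with correlations over 9 arrays of 0.97, 0.96 and 0.95, again as a description. Of the other members, Asah1 was the most like Plpp3 with 0.77 in its brighter probe set, at rank 373 among all genes.

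Of the 13 measured genes of ceramidases and sphingosine phosphate beside Plpp3, 0 passed limma's adjusted p and 0 had an unadjusted p under 0.05, as 6.70% of all genes had. Without Plpp3 the list had 5 higher and 8 lower, where 50.8% of all genes were higher, and its median was -0.070. Acer1, an alkaline ceramidase, was dim and read 4.17, 4.20, 4.17 and 4.19 in chow arrays. It read 4.33, 4.29, 4.27, 4.34 and 4.28 in cafeteria arrays. These groups spread little and did not overlap, as in 2.17% of all genes in either direction. The difference was 0.12 (SE 0.057, adjusted p by limma = 0.844). Acer2, the alkaline ceramidase of the Golgi apparatus, differed by 0.15 (SE 0.11), with 1 other probe set of opposite sign. Sgpl1, the lyase that ends the pathway, differed by -0.33 (SE 0.18, adjusted p by limma = 0.844), with 3 of 5 cafeteria arrays below every chow array.

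The receptors for sphingosine 1-phosphate had 4 measured genes, 1 higher and 3 lower, with 0 past limma's adjusted p. Their median of -0.11 was 0.0047 without chow replicate 3 and -0.0093 without cafeteria replicate 1, so no direction is given for the list. S1pr5 was the higher one and had an unadjusted p under 0.05, where 6.70% of all genes stood. S1pr5 was dim and read 4.64, 4.68, 4.54 and 4.44 in chow and 4.71, 4.91, 4.84, 4.78 and 4.80 in cafeteria arrays. The groups did not overlap, as in 2.17% of all genes in either direction. The difference was 0.23 (SE 0.074, adjusted p by limma = 0.844). S1pr2, which was dim too, and S1pr3 differed by -0.17 (SE 0.084) and -0.15 (SE 0.097). S1pr1 differed by -0.072 (SE 0.23), with 1 other probe set of opposite sign. S1pr3 was -0.092 without chow replicate 3 and -0.039 with the immune score as a covariate.

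Over the whole pathway, 69 of 83 listed genes were measured, and 67 without Cptp and Plpp3. Of these 67, 24 were higher and 43 lower. The share higher was 35.8%, beside 50.8% of all genes, and the median difference was -0.046, beside 0.0025. By limma 0 of the 67 passed the adjusted p, and 3 had an unadjusted p under 0.05, a share of 4.48% beside the 6.70% of all genes. These were S1pr5 and St3gal5, which were higher, and Cers5, which was lower, and 3.42% and 3.28% of all genes stood there in these directions. With the immune score as a covariate 0 of the 67 stood there, and 8 without chow replicate 1. Over all 31042 probe sets, 916 and 2712 stood there in these 2 settings, against 1789 in the main fit. The groups did not overlap in 3 of the 67, St3gal5, Acer1 and S1pr5, all with higher cafeteria values. Of all genes, 2.17% had such groups in either direction, and 1.33% with higher cafeteria values.

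**Figure D4:**
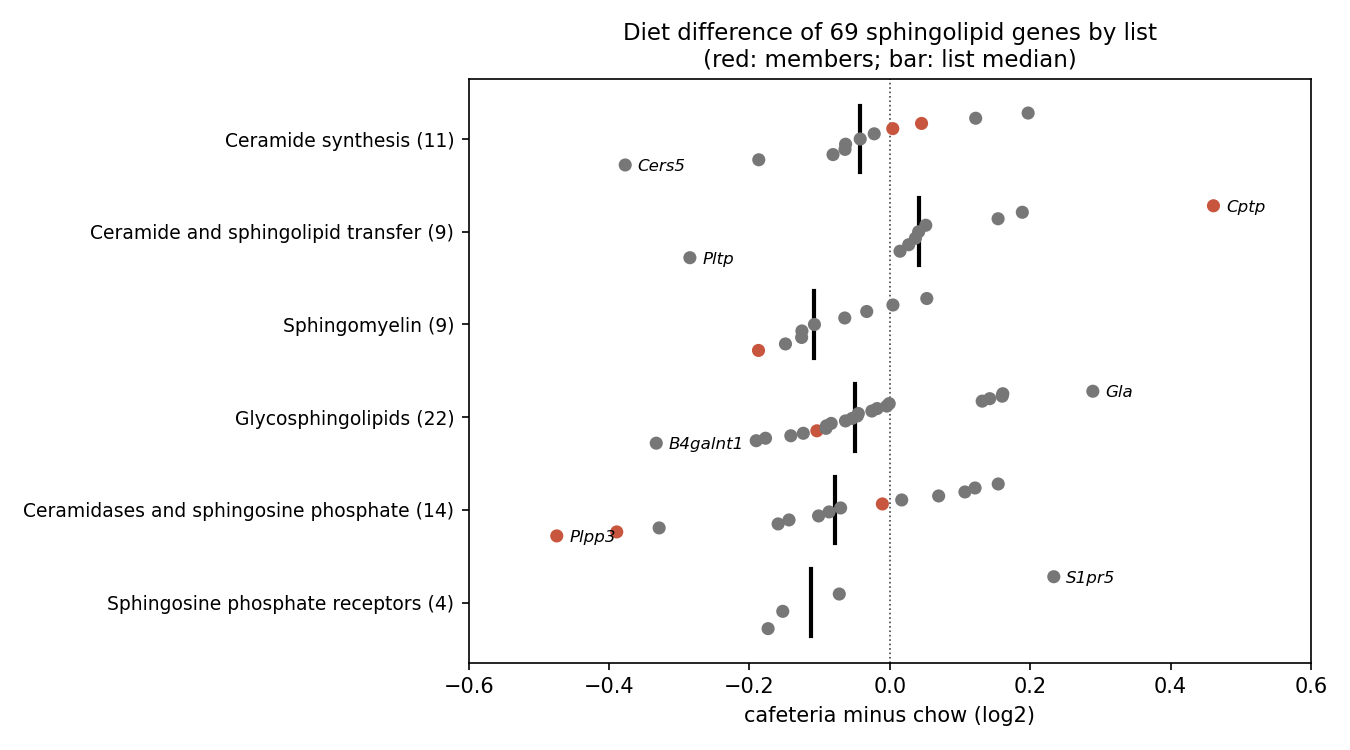
Cafeteria minus chow difference in log2 (horizontal axis) of 69 measured sphingolipid genes, 1 point per gene, in 6 lists with the number of genes in brackets. Red points are members and vertical bars are list medians. Cptp at 0.46 and Plpp3 at -0.47 lie at the ends, and Cers5 at -0.38 and S1pr5 at 0.23 stand outside the bulk of their lists. List medians, with Cptp and Plpp3 counted, run from -0.11 to 0.041.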

How the data were processed

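The authors deposited log2 expression values per probe set from Affymetrix Rat Genome 230 2.0 arrays. RMA is named in the submitters' processing notes, beside affy 2.0.1 and R 2.7.0, with no role given. Of 31099 probe sets, 57 controls were left out. The platform annotation gave 20826 of the other 31042 a single gene, and each of 14217 genes was read from its probe set with the highest mean over 9 arrays. The test was limma 3.58.1 (R 4.3.3), lmFit and eBayes without covariates, two-sided, adjusted over all 31042 probe sets, and checked on simulated data. Scores and RNA quality were compared by exact permutation over the 126 splits of the arrays, whose smallest p is 0.00794 (Python 3.11.15, numpy 2.4.6, scipy 1.17.1). The members and lists were chosen with earlier results of these data known. Beside the members, the text names the 3 genes of each of 6 pathway lists with the smallest unadjusted p, the 3 genes most like Cptp and Plpp3, and 4 hormone genes. Cert1, Gltp, Smpd1, Sphk2, Plpp1, Plpp2 and S1pr1 were added after their values were seen. Alternatives were other scalings, filters, variance models, weights, covariates and probe set rules, and each array left out.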

Additional observations from a re-analysis of the deposited data

Results flagged for a closer look

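Single arrays stood far from the rest of their diet group, by Dixon's ratio of the gap to the range at its 95% critical value, in 5 of the 78 groups of values examined, where chance gives about 1 in 20. St3gal5 was highest in cafeteria replicate 2, at 7.64 against 7.55 for the next array. B4galt5 was lowest in cafeteria replicate 5, at 5.86 against 6.20. Smpdl3b was lowest in cafeteria replicate 3, at 4.85 against 5.05. The acinar score was lowest in cafeteria replicate 5, at -1.13 against 0.30, and the immune score highest in chow replicate 3, at 1.08 against 0.12. None of the 14 member probe sets met this rule in either diet.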

How the results depend on the processing

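Under every alternative run over probe sets, an adjusted p of 0.10 included, 0 passed limma's adjusted p, and of the pathway genes beside Cptp and Plpp3 0 passed in the mean of their probe sets too. Of the 8 members, Cptp and Plpp3 kept their sign under the alternatives run, but both were chosen from this contrast. Plpp3 was -0.30 as the mean of its probe sets and -0.12 and -0.32 in the other probe sets. Degs1 was -0.28 as a mean and -0.28 and -0.60 in its others, Sgms1 0.014 and Asah1 0.059. Cers2 was -0.0030 with RNA quality and -0.011 with the acinar score as a covariate. Sphk1 was 0.031 with array weights and 0.0037, 0.040 and 0.0055 with RNA quality, the acinar and the immune score. With the immune score Ugcg was 0.22, B4galnt1 0.048 and Smpd2 0.11. With 1 array left out Cptp ran from 0.41 to 0.52, Plpp3 from -0.52 to -0.42, Cers2 from -0.015 to 0.033, Ugcg from -0.28 to 0.074, Sphk1 from -0.060 to 0.051 and Smpd2 from -0.32 to 0.0038.

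Of 31042 probe sets, 1789 had an unadjusted p under 0.05. They numbered 3413 with RNA quality, 916 with the immune score and 1235 to 2750 with 1 array left out. Of the 67 pathway genes beside Cptp and Plpp3 3 stood there, and then 6, 0 and 3 to 8 in the same order. The 8 came without chow replicate 1, where 2712 probe sets stood. Among brighter probe sets alone, a smaller table, 899 stood there, with 1 of the 52 pathway genes kept. Of the 67 pathway genes, 5 stood there with median centring, beside 1815 probe sets, and 5 with array weights, beside 2675. As the mean of all probe sets they were 5 too. The synthesis median was -0.0090 among brighter probe sets, -0.0096 with the immune score and -0.063 to -0.0090 with 1 array left out. So treated, the medians of the other lists ran from 0.031 to 0.089 (transfer), -0.12 to -0.050 (sphingomyelin), -0.086 to -0.022 (glycosphingolipids), -0.11 to -0.032 (ceramidases and sphingosine phosphate) and -0.16 to 0.0047 (receptors). Cptp was counted in the transfer median, and Plpp3 in that of ceramidases and sphingosine phosphate. The transfer median was 0.12 with the acinar score, and the receptor median 0.091 with the immune score. The cause was not tested. No paired analysis was possible because the labels carry no replicate numbers shared by both diets. Median centring gave 26 higher and 41 lower pathway genes of 67, or 38.8% higher, beside 53.6% of all genes. Repeated quantile normalization gave 27 higher and 40 lower, or 40.3% higher, beside 51.5% of all genes. Of 18 named genes outside the members, 11 moved by over 1.5 times with 1 array left out and 6 with the immune score as a covariate.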
